A study of Homo sapiens with 9 samples.

Results

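The SLC25 genes encode mitochondrial carriers, and 47 members of the family are described among the 24542 rows of the count table, 19974 of which carried an Ensembl gene identifier. A row was a member when its identifier mapped to a protein-coding gene whose symbol was SLC25A followed by a number. A2780, an established human ovarian carcinoma line labelled wild type, was grown for 96 h in 3 groups of 3 libraries each, 9 in all. The control group received 0.5% DMSO. The other groups received cisplatin (written Cispt in the labels), a platinum drug that crosslinks DNA, at 0.6 µM, or Pt-ttpy at 5.5 µM, a platinum compound said in the series title to bind G-quadruplexes, folds of guanine-rich DNA, and to impair mitochondria. By the labels, both drugs were given at their IC80, so the doses differ and match in toxicity. The libraries are called DMSO 1, 2 and 3 and so on after their labelled biological replicate number. Nothing in the labels says that the replicates were separate cultures, so the p-values may measure only technical spread between samples.

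Carriers of this family sit mostly in the inner mitochondrial membrane and exchange small molecules between the matrix and the cytosol. The ADP/ATP carriers bring ADP in and let ATP out, the phosphate carrier supplies the other substrate of ATP synthase, and further members move citrate, malate, amino acids, cofactors, nucleotides and iron. Each is encoded in the nucleus, and most members have close relatives that share a substrate. In a dividing cancer cell the family links respiration with the cytosolic synthesis of lipids, nucleotides and amino acids.

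Library totals lay between 31.3 and 40.8 M counts, and no 2 libraries were duplicates of each other. The 13 protein-coding genes of mitochondrial DNA held 1.75% to 1.89% of the counts with DMSO. They held 4.21%, 0.756% and 2.03% in cisplatin 1, 2 and 3, and 4.18%, 1.95% and 2.07% in Pt-ttpy 1, 2 and 3. Replicate 1 was the highest with each drug, and replicate 3 with DMSO. Of 8 epithelial and ovarian carcinoma markers 6 were too low to be tested, and their summed level was 0.125 to 0.506 CPM (counts per M, with library sizes scaled by TMM factors) with DMSO, 1.54 to 3.55 with cisplatin and 0.554 to 0.986 with Pt-ttpy. PAX8 and MUC16 were at 0 in every DMSO library, and the labelled carcinoma type was not visible in the DMSO levels of these 8 markers. The 2 markers that could be tested were called higher with cisplatin (log2 changes 3.24 and 4.66), against 10.7% of all genes. With Pt-ttpy both changes were positive (1.41 and 3.09) and not called. The summed level of 5 fibroblast markers was 874 to 984 CPM with DMSO, 1498 to 1763 with cisplatin and 1572 to 1644 with Pt-ttpy. Of these markers 3 (COL3A1, LUM and DCN) were called higher with each drug, against 5.59% of all genes with Pt-ttpy and 10.7% with cisplatin. The other 2 (COL1A1 and COL1A2) were not called, and 1 change was negative with each drug (log2 −0.16 with Pt-ttpy and −0.12 with cisplatin). The part of these markers in the carrier results was not tested. Leukocyte markers summed to at most 3.36 CPM and endothelial, erythroid and hepatocyte markers to at most 0.246 CPM in a library.

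The family held 0.428%, 0.493% and 0.428% of all counts in DMSO 1, 2 and 3. Its share was 0.401%, 0.489% and 0.421% with cisplatin and 0.407%, 0.423% and 0.429% with Pt-ttpy. The 3 groups overlapped, and the highest values were those of DMSO 2 and cisplatin 2. These 2 libraries also differed from the other 7 in how the carrier genes followed transcript GC content. The deviation of a library from the mean of the 9 libraries was correlated with GC over the 41 tested members. The Spearman correlation was 0.57 in DMSO 2 and 0.33 in cisplatin 2, and it lay between −0.40 and −0.12 in the others. Deviations from a shared mean sum to 0, so positive values in some libraries push the others toward negative ones. Exact 95% binomial (Clopper-Pearson) intervals, which cover counting error only, ran from 0.491% to 0.495% in DMSO 2 and from 0.399% to 0.404% in cisplatin 1. DMSO 2 was the highest of the DMSO libraries in 26 of the 41 members and the lowest in 10.

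Levels per kb of principal transcript (CPM divided by transcript length) differed widely between members, up to a mean of 535 over the 9 libraries. SLC25A6, an ADP/ATP carrier, was highest at 532 ± 111 CPM per kb with DMSO, 567 ± 102 with cisplatin and 505 ± 21.7 with Pt-ttpy (SD, n = 3). SLC25A5, also an ADP/ATP carrier, followed at 474 ± 55 with DMSO, and SLC25A3, the phosphate carrier, at 427 ± 35. The ranges of neighbours in this order overlapped between DMSO libraries, yet within each DMSO library the order was the same. With Pt-ttpy SLC25A3 lay above SLC25A5 in each library. With all exon bases of the gene as the length, in place of the principal transcript, the mean of SLC25A3 over the 9 libraries changed from 397 to 74.8 CPM per kb. These 3 genes together held 50.2% to 57.4% of the family's counts. The glutathione carrier SLC25A39 (133 ± 25), the citrate carrier SLC25A1 (108 ± 20) and the dicarboxylate carrier SLC25A10 (110 ± 22 with DMSO) came next and were close to each other. At the low end, the testis-type ADP/ATP carrier SLC25A31 was at 0 in 8 of the 9 libraries, and SLC25A48 was at 0 in all 9. SLC25A2, SLC25A27, SLC25A47 and SLC25A52 were also near 0 and, with these, made up the 6 members that did not pass the filter on low counts. A floor of 3 counts corresponds to 0.0735 to 0.0960 CPM in these libraries.

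**Figure D1:**
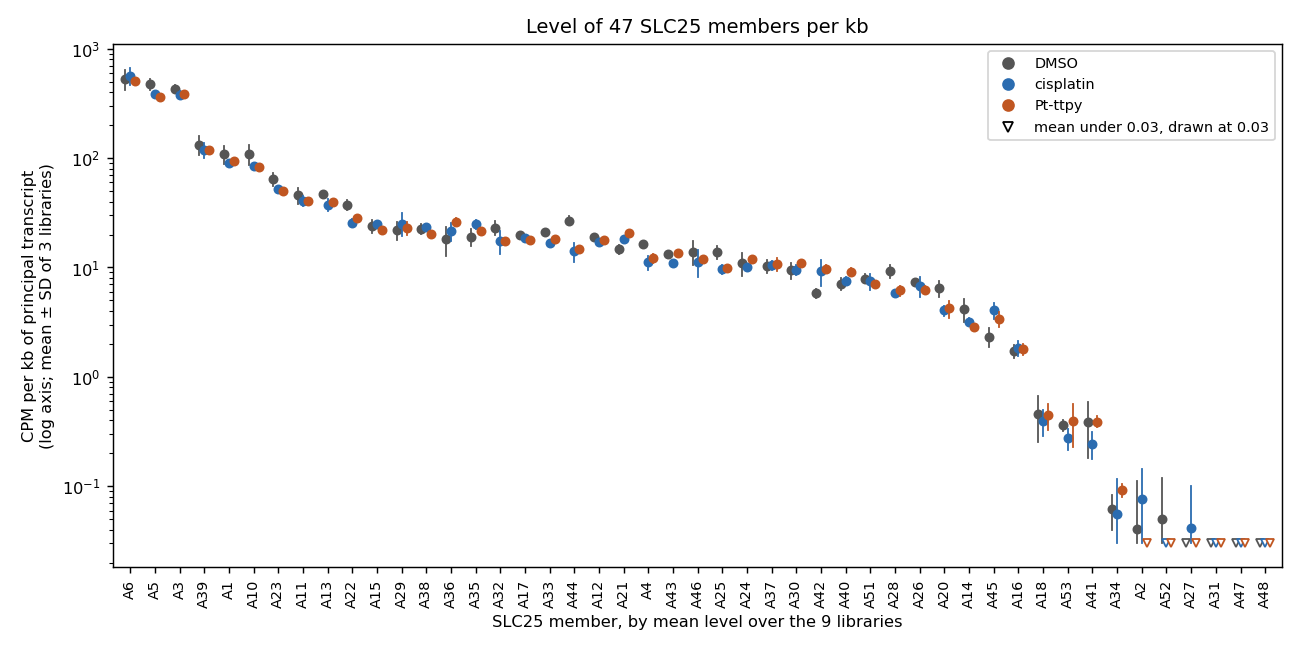
Level of each of the 47 SLC25 members in CPM per kb of principal transcript on a log axis, as mean ± SD of 3 libraries for DMSO, cisplatin and Pt-ttpy; a bar that would reach below the axis is drawn to 0.03, and triangles mark group means under 0.03. SLC25A6, SLC25A5 and SLC25A3 lead, and the 6 untested members lie at the right-hand end.

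The comparison of Pt-ttpy with DMSO addresses which genes answer to the platinum complex. Among the 41 carriers tested, 7 were lower and 2 higher with Pt-ttpy, and 32 were not called (edgeR quasi-likelihood test over 15558 genes, threshold 0.05 on the Benjamini-Hochberg adjusted p). Lower were the ADP/ATP carriers SLC25A4 and SLC25A5, SLC25A23 and SLC25A25 (ATP-Mg/phosphate), SLC25A22 (glutamate), SLC25A44 (branched-chain amino acids) and SLC25A28 (iron). Higher were SLC25A42 (coenzyme A) and SLC25A21 (oxodicarboxylates). Over all genes tested 6.45% were called lower and 5.59% higher, beside 7 and 2 of the 41 members. The share of all genes called lower rose with expression, to 13.2% in the highest of 5 bins of mean expression, which held 10 members. The median log2 change of the tested members was −0.16, against 0.03 over all genes. Without DMSO 2 that median was −0.0299, against 0.02 over all genes, with 2 members lower against 3.89% of all genes. Without Pt-ttpy 1, 2 or 3 the lower members numbered 1, 0 and 1, against 0.427%, 0.264% and 0.545% of all genes. In bulk RNA, fewer cells of a kind and less RNA per cell cannot be told apart. With upper-quartile factors or library totals as the scaling, 2 members were higher and 2 lower (SLC25A25 and SLC25A44). Over all genes 6.75% and 6.46% were then higher and 4.28% and 4.97% lower, so the 2 of 41 lower members were near the background.

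The comparison of cisplatin with DMSO asks the same of the established drug, and it shares the DMSO libraries with the first. With cisplatin 9 of the 41 tested members were lower, 2 were higher and 30 were not called. Lower were SLC25A4, SLC25A5, SLC25A13 and SLC25A22 (aspartate/glutamate and glutamate), SLC25A44, SLC25A20 (carnitine and acylcarnitines), SLC25A25, SLC25A28 and SLC25A33 (pyrimidine nucleotides). Higher were SLC25A42 and SLC25A45, whose substrate is not settled here. Over all genes 9.78% were called lower and 10.7% higher, so the 2 higher members lay under the background share. The median log2 change of the tested members was −0.17, against 0.01 over all genes. With upper-quartile factors or library totals 4 members were higher and 6 lower, against 12.5% and 12.8% of all genes higher and 5.87% and 6.06% lower. Fitted on the 6 libraries of this comparison alone, 0 were higher and 3 lower, against 6.05% and 2.6% of all genes.

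The fitted changes of the tested members lay between −0.86 and 0.74 (log2) with Pt-ttpy and between −0.93 and 0.81 with cisplatin. Without a model, the CPM values of the Pt-ttpy libraries lay below all DMSO values in 16 of the 41 members (20.6% of all genes) and above them in 6 (20.3%). With cisplatin 14 members lay below all DMSO values (19.4% of all genes) and 3 above (18.6%). Changes over all genes were lower at higher expression. In the highest of 5 bins of mean expression, which held 10 members, the median of all genes was −0.10 with Pt-ttpy and −0.16 with cisplatin, and that of the members −0.22 and −0.27. In the next bin, with 14 members, the medians were −0.07 and −0.11 for all genes and −0.16 and −0.12 for the members.

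**Figure D2:**
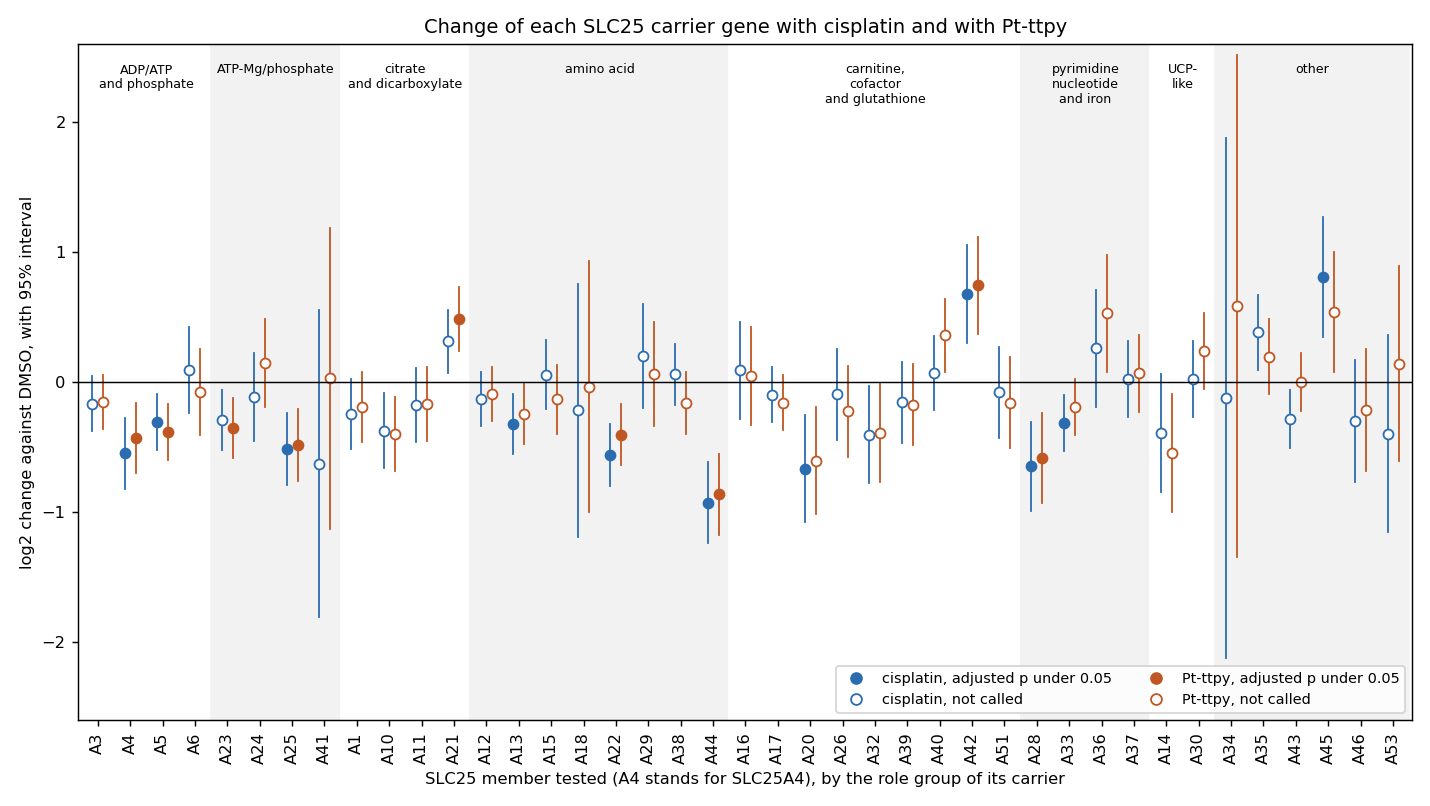
Fitted log2 change against DMSO for the 41 tested SLC25 members, grouped by the role of the carrier, for cisplatin and Pt-ttpy; bars are 95% intervals and filled points have an adjusted p under 0.05. SLC25A44 lies lowest among the filled points and SLC25A42 and SLC25A45 highest; wide bars belong to members of low counts.

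Promoters were read from RefSeq (GRCh38.p14) for 40 of the 47 members, 35 of them tested, as the 250 bases before the RefSeq start. A G-quadruplex pattern (4 runs of at least 3 G on either strand, with 1 to 7 bases between runs) was present in 11 of these 35 windows (31.4%) and in 32.8% of the 10696 windows of all tested genes. Among members lower with Pt-ttpy 2 of 7 windows held it. The letters CCAAT, on either strand, were present in 16 of 35 (45.7%, against 35.1% of all windows) and the E-box CACGTG in 6 (17.1%, against 8.82%). The core GCATGCGC of the respiratory factor NRF1 was in 0 of 35, against 4.81% of all windows. A match describes letters, not a bound site. The stretches below belong to the member with the largest fall (SLC25A44), the falling iron carrier, an ADP/ATP carrier whose window holds the G-quadruplex pattern, and the coenzyme A carrier, which rose and has 6 CCAAT matches. They run 5′ to 3′ on the gene's strand, stop where either the RefSeq or the GENCODE start is reached, and have CCAAT or its complement ATTGG, or the G-quadruplex pattern, in capitals.
SLC25A44: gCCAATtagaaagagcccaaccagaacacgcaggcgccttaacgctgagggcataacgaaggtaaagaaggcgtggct
SLC25A28: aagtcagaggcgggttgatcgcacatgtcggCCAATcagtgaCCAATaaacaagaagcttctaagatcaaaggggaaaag
SLC25A5: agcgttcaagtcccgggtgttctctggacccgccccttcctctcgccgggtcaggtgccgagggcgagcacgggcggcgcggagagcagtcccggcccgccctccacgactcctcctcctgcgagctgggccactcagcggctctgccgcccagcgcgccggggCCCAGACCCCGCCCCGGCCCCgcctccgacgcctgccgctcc
SLC25A42: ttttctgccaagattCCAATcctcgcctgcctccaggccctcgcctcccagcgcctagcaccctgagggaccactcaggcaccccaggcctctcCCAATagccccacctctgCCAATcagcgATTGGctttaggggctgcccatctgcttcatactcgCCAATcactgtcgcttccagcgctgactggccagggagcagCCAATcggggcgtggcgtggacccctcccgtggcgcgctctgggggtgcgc
In GRCh38 these lie at chr1:156193854-156193931 (plus strand), chr10:99620610-99620689 (minus), chrX:119468194-119468399 (plus) and chr19:19063744-19063993 (plus). The stretch of SLC25A44 holds 1 of the 2 CCAAT matches of its full window and that of SLC25A28 holds 2 of 3. In SLC25A5 the capitals are C runs, so the G runs lie on the other strand.

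The ADP/ATP and phosphate carriers had 2 of 4 tested members lower with each drug, and 0 higher. Over all genes 6.45% were lower and 5.59% higher with Pt-ttpy, and 9.78% and 10.7% with cisplatin. A role group holds 2 to 9 tested members, so the counts of groups here and below are descriptions and were not tested. SLC25A5 (ENSG00000005022; chromosome X, 119468400 to 119471319, GRCh38, GENCODE 29, as are the positions below) was at 576, 683 and 552 CPM in DMSO 1, 2 and 3. It was at 471, 518 and 474 CPM with cisplatin and at 451, 466 and 468 with Pt-ttpy. Every treated library lay below every DMSO library. Its log2 change was −0.39 (SE 0.10, adjusted p = 0.0279) with Pt-ttpy and −0.31 (SE 0.10, adjusted p = 0.0456) with cisplatin. SLC25A4 (ENSG00000151729; chromosome 4, 185143241 to 185150382), the form typical of heart and muscle, was at 74.1, 74.5 and 68.9 CPM with DMSO. It was at 54.8, 41.6 and 52.3 with cisplatin and at 48.4, 58.5 and 54.4 with Pt-ttpy, again with no overlap with DMSO. It fell by 0.43 (SE 0.12, adjusted p = 0.0434) with Pt-ttpy and by 0.55 (SE 0.12, adjusted p = 0.0119) with cisplatin.

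SLC25A6, the third ADP/ATP carrier present, was not called. It was at 970, 1360 and 961 CPM with DMSO, at 1045, 1413 and 1050 with cisplatin and at 990, 1056 and 1075 with Pt-ttpy, and the 3 groups overlapped. Its log2 change was −0.08 (95% interval −0.41 to 0.25) with Pt-ttpy and 0.09 (−0.24 to 0.42) with cisplatin, and the difference between the responses of these carriers was not tested. Per kb, SLC25A5 made up 48.1%, 44.2% and 47.4% of the ADP/ATP carrier transcripts in DMSO 1, 2 and 3. It made up 41.6%, 36.9% and 41.7% with cisplatin and 41.9%, 41.0% and 40.8% with Pt-ttpy. SLC25A6 made up 50.1% to 54.4% with DMSO, 57.0% to 62.2% with cisplatin and 56.8% to 57.9% with Pt-ttpy. SLC25A6 held the larger part in each of the 9 libraries, and its part was larger in each treated library than in any DMSO library. With 3 libraries against 3 an exact permutation test cannot go below p = 0.1, and none was run on these shares. The phosphate carrier SLC25A3 was at 694, 782 and 673 CPM with DMSO, 598, 692 and 620 with cisplatin and 608, 652 and 671 with Pt-ttpy (log2 −0.15 with Pt-ttpy, adjusted p = 0.314, and −0.17 with cisplatin, 0.234). GENCODE 29 lists 9 pseudogenes named after SLC25A5 and 6 after SLC25A6, so the split of reads between near-identical copies is uncertain.

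Both Pt-ttpy calls depended on which libraries were in the fit. Leaving out any 1 of the 3 Pt-ttpy libraries ended the Pt-ttpy call of SLC25A5 (adjusted p up to 0.111). SLC25A4 kept that call without cisplatin 2 and lost it without each other library (highest 0.17). With cisplatin SLC25A4 kept its call whichever library was left out, while SLC25A5 kept it in 2 of 9 such fits (highest 0.121).

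The ATP-Mg/phosphate carriers adjust the adenine nucleotide content of the matrix, and most of them are switched by calcium. With Pt-ttpy 2 of 4 were lower (6.45% of all genes), and with cisplatin 1 of 4 (9.78%). SLC25A25 (ENSG00000148339; chromosome 9, 128068201 to 128109245) was at 46.4, 55.0 and 42.0 CPM with DMSO, at 34.4, 29.9 and 36.0 with cisplatin and at 34.6, 34.0 and 33.8 with Pt-ttpy. The treated libraries all lay below the DMSO libraries. Its log2 change was −0.49 (SE 0.13, adjusted p = 0.0304) with Pt-ttpy and −0.52 (SE 0.13, adjusted p = 0.0159) with cisplatin. It shares 6 exon bases with NAIF1 on the other strand. SLC25A23 was at 192, 250 and 215 CPM with DMSO, 171, 183 and 182 with cisplatin and 167, 174 and 174 with Pt-ttpy. Its change was −0.35 (SE 0.11, adjusted p = 0.0496) with Pt-ttpy and −0.29 (adjusted p = 0.0677) with cisplatin. The SLC25A23 call was lost in 7 of 9 fits without 1 library and in 9 of 13 other settings, and the Pt-ttpy call of SLC25A25 was lost without DMSO 2 or any Pt-ttpy library (highest adjusted p = 0.116). SLC25A24 had changes of 0.14 and −0.12 with Pt-ttpy and cisplatin, and the low SLC25A41 was at 0.258 to 0.945 CPM.

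Of the 8 amino acid carriers tested 2 were lower with Pt-ttpy (6.45% of all genes) and 3 with cisplatin (9.78%). None was higher, against 5.59% and 10.7% of all genes. SLC25A44 (ENSG00000160785; chromosome 1, 156193932 to 156212796), which brings branched-chain amino acids into mitochondria, had the largest fall of the family with each drug. It was at 84.1, 101 and 95.3 CPM with DMSO, at 53.4, 38.0 and 56.0 with cisplatin and at 52.2, 48.4 and 53.4 with Pt-ttpy. The highest treated library was far below the lowest DMSO library. SLC25A44 fell by 0.86 (SE 0.14, adjusted p = 0.0076) with Pt-ttpy and by 0.93 (SE 0.14, adjusted p = 0.00218) with cisplatin. The Pt-ttpy call was lost only without Pt-ttpy 2 (0.0521), and the cisplatin call was kept in all 9 fits without 1 library. BCAT2, the mitochondrial enzyme that transaminates these amino acids, was at −0.20 (adjusted p = 0.291) and −0.31 (0.0801).

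SLC25A22 (ENSG00000177542; chromosome 11, 790475 to 798333), the more abundant of the 2 glutamate carriers, was at 99.6, 117 and 98.6 CPM with DMSO. It was at 67.5, 68.0 and 77.8 with cisplatin and at 75.5, 81.3 and 81.3 with Pt-ttpy, with no overlap with DMSO. Its change was −0.40 (SE 0.11, adjusted p = 0.033) with Pt-ttpy and −0.56 (SE 0.11, adjusted p = 0.00605) with cisplatin. Its relative SLC25A18 was at 0.649 to 1.55 CPM. SLC25A22 shares 504 exon bases with PANO1 on the opposite strand, and without a stated strand setting these counts cannot be divided. SLC25A13, an aspartate/glutamate carrier of the malate-aspartate shuttle, was at 153, 147 and 140 CPM with DMSO, at 124, 101 and 127 with cisplatin and at 121, 124 and 127 with Pt-ttpy. It was called with cisplatin (−0.32, SE 0.11, adjusted p = 0.0479) and not with Pt-ttpy (−0.25, 0.14). The cisplatin call of SLC25A13 was lost whichever library was left out (highest 0.117). The Pt-ttpy call of SLC25A22 was lost without DMSO 2, DMSO 3 or any Pt-ttpy library (highest 0.133), and its cisplatin call was kept in all 9 fits.

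Other amino acid carriers stayed between −0.16 and 0.20 in both comparisons. They were SLC25A12, the other shuttle member, SLC25A15 (ornithine), SLC25A29 (basic amino acids) and SLC25A38, which supplies glycine for heme synthesis. SLC25A38 was at 44.6, 53.8 and 46.9 CPM with DMSO, 48.3, 52.8 and 50.1 with cisplatin and 41.3, 45.0 and 43.5 with Pt-ttpy. Here the Pt-ttpy values were the lower ones, and the DMSO range overlapped both.

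The group of carnitine, cofactor and glutathione carriers had calls in both directions. With Pt-ttpy 1 was higher and 0 lower of 9 tested, and with cisplatin 1 was higher and 1 lower. Over all genes 5.59% were higher and 6.45% lower with Pt-ttpy, and 10.7% and 9.78% with cisplatin. SLC25A42 (ENSG00000181035; chromosome 19, 19063999 to 19112888), which imports coenzyme A into the matrix, was called higher. It was at 16.1, 18.9 and 19.3 CPM with DMSO, at 23.6, 37.5 and 25.5 with cisplatin and at 29.9, 28.1 and 32.8 with Pt-ttpy. No treated value overlapped DMSO, and cisplatin 2 was the highest of all. SLC25A42 rose by 0.74 (SE 0.17, adjusted p = 0.021) with Pt-ttpy and by 0.68 (SE 0.17, adjusted p = 0.0192) with cisplatin. The Pt-ttpy call was lost without DMSO 1 or any Pt-ttpy library (highest adjusted p = 0.0834) and the cisplatin call without DMSO 1 (0.0607). SLC25A16, also assigned to coenzyme A, was at 9.87 to 13.3 CPM in all libraries (0.05 with Pt-ttpy, adjusted p = 0.888, and 0.09 with cisplatin, 0.752). COASY, which makes coenzyme A, was at −0.43 (adjusted p = 0.0738) with Pt-ttpy and −0.42 (0.0589) with cisplatin.

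SLC25A20, the carrier that lets acylcarnitines into the matrix for oxidation, was at 11, 14.4 and 10.9 CPM with DMSO, at 7.60, 6.84 and 8.45 with cisplatin and at 7.29, 6.99 and 9.57 with Pt-ttpy. It was called with cisplatin (−0.67, SE 0.19, adjusted p = 0.0287) and just missed with Pt-ttpy (−0.61, SE 0.19, adjusted p = 0.056). The cisplatin call was lost without DMSO 2, cisplatin 1 or cisplatin 2 (highest 0.0748). The enzymes on either side of this step, CPT1A and CPT2, were between −0.13 and 0.08. SLC25A40 and SLC25A39 bring glutathione into the matrix. SLC25A40 was at 32.9, 25.3 and 28.4 CPM with DMSO, 28.1, 33.0 and 29.6 with cisplatin and 36.5, 34.7 and 39.8 with Pt-ttpy. Its Pt-ttpy values lay above all others (0.36 against DMSO, adjusted p = 0.088), and it shares 142 exon bases with DBF4 on the opposite strand. SLC25A39, the more abundant of the pair, was at −0.17 (0.444) and −0.16 (0.47). SLC25A17, SLC25A26, SLC25A32 and SLC25A51, for peroxisomal cofactors, S-adenosylmethionine, folate and NAD, were between −0.41 and −0.08 and were not called.

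**Figure D3:**
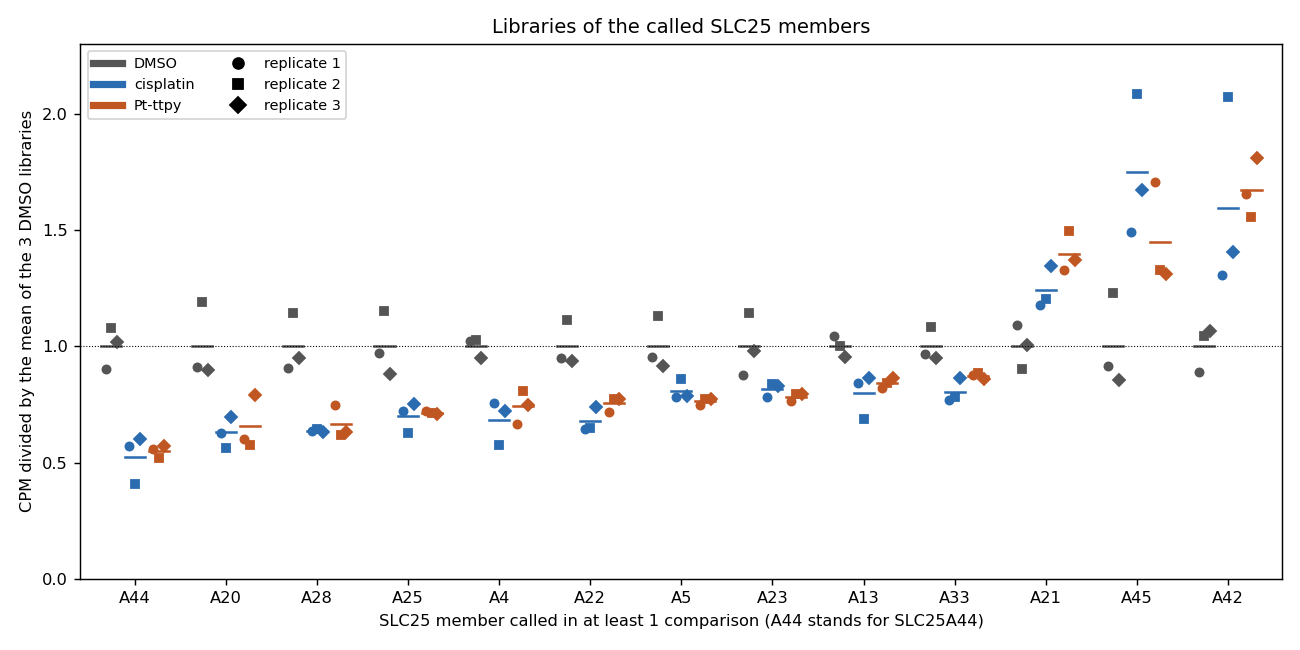
Each library's CPM divided by the DMSO mean for the 13 SLC25 members called in at least 1 comparison, ordered by the Pt-ttpy change; symbols mark the replicate number and lines the group means. For SLC25A44 the treated libraries lie well below DMSO, and DMSO 2 (grey square) is the highest DMSO library in all 7 members called lower with Pt-ttpy.

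Of the citrate and dicarboxylate carriers 1 of 4 was called, higher with Pt-ttpy (5.59% of all genes). SLC25A21 (ENSG00000183032; chromosome 14, 36678431 to 37172866), which exchanges oxodicarboxylates of lysine and tryptophan breakdown, was at 44.6, 37.0 and 41.1 CPM with DMSO. It was at 48.1, 49.2 and 54.9 with cisplatin and at 54.3, 61.2 and 56.0 with Pt-ttpy. All treated libraries lay above DMSO. Its change was 0.48 (SE 0.11, adjusted p = 0.021) with Pt-ttpy and 0.31 (SE 0.11, adjusted p = 0.0682) with cisplatin. SLC25A21 shares 481 exon bases with PAX9 on the opposite strand. PAX9 was higher too, at 190 to 215 CPM with DMSO, 259 to 267 with cisplatin and 245 to 253 with Pt-ttpy (0.36, adjusted p = 0.0143 with cisplatin, and 0.29, 0.0499 with Pt-ttpy). Which gene such counts come from was not tested. The Pt-ttpy call of SLC25A21 was lost without DMSO 3 or any Pt-ttpy library (highest adjusted p = 0.103).

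SLC25A10, the dicarboxylate carrier, was at 179, 255 and 186 CPM with DMSO, 154, 155 and 169 with cisplatin and 153, 150 and 167 with Pt-ttpy. No treated value reached the DMSO range, yet neither comparison was called (−0.40, adjusted p = 0.0664 with Pt-ttpy, and −0.38, 0.0617 with cisplatin), and the spread among DMSO libraries was wide. It shares 1221 exon bases with AC139530.2 on the same strand. The citrate carrier SLC25A1 was at −0.19 (0.322) and −0.25 (0.171) and the oxoglutarate carrier SLC25A11 at −0.17 (0.412) and −0.18 (0.36).

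Among the pyrimidine nucleotide and iron carriers 1 of 4 was lower with Pt-ttpy (6.45% of all genes) and 2 of 4 with cisplatin (9.78%). SLC25A28 (ENSG00000155287; chromosome 10, 99610522 to 99620609), mitoferrin 2, the iron importer of non-erythroid cells, was at 12.2, 15.4 and 12.8 CPM with DMSO. It was at 8.53, 8.66 and 8.50 with cisplatin and at 10.0, 8.31 and 8.50 with Pt-ttpy, all below DMSO. It fell by 0.59 (SE 0.16, adjusted p = 0.0335) with Pt-ttpy and by 0.65 (SE 0.16, adjusted p = 0.0156) with cisplatin. The Pt-ttpy call was lost without DMSO 2, DMSO 3 or any Pt-ttpy library (highest 0.141), and the cisplatin call was kept in all 9 fits. SLC25A37, mitoferrin 1, known from red cell precursors, was the more abundant of the pair at 43.9, 56.5 and 48.7 CPM with DMSO, 55.7, 46.0 and 49.7 with cisplatin and 60.0, 47.8 and 48.2 with Pt-ttpy. Its groups overlapped (0.07, adjusted p = 0.788, and 0.02, 0.927).

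The pyrimidine nucleotide carriers SLC25A33 and SLC25A36 gave changes of opposite sign. SLC25A33 was at 78.1, 87.4 and 76.6 CPM with DMSO, 62.0, 62.9 and 69.5 with cisplatin and 70.7, 71.5 and 69.3 with Pt-ttpy. It was called with cisplatin (−0.32, SE 0.10, adjusted p = 0.0429) and not with Pt-ttpy (−0.20, 0.213), and the call was lost whichever library was left out (highest 0.123). SLC25A36 was at 94.8, 54.8 and 102 CPM with DMSO, 108, 78.6 and 114 with cisplatin and 132, 114 and 117 with Pt-ttpy. DMSO 2 and cisplatin 2 were its lowest libraries, and its changes of 0.53 (adjusted p = 0.112) and 0.26 (0.401) were not called. Without these 2 libraries the Pt-ttpy change of SLC25A36 was 0.30 (SE 0.07, adjusted p = 0.0015). A fit without libraries that stood apart may understate the spread between replicates. Whether SLC25A33 and SLC25A36 differ in response was not tested.

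**Figure D4:**
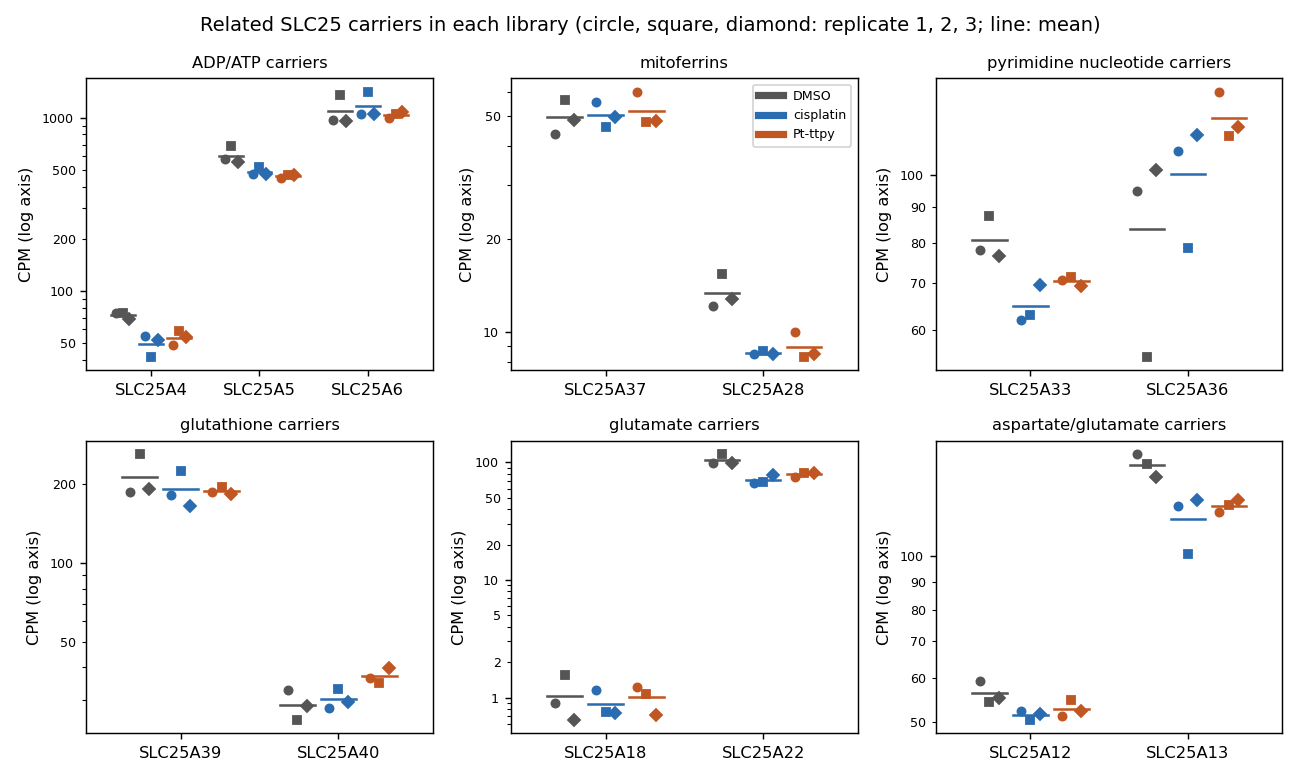
CPM of related SLC25 carriers in each library on log axes, with symbols for replicates 1 to 3 and lines for group means. In the ADP/ATP, mitoferrin and glutamate panels SLC25A4, SLC25A5, SLC25A28 and SLC25A22 lie lower in all treated libraries, while SLC25A6, SLC25A37 and SLC25A18 overlap between groups.

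Of the UCP-like and remaining carriers only SLC25A45 was called, higher with cisplatin (10.7% of all genes). SLC25A45 was at 4.87, 6.56 and 4.57 CPM with DMSO, 7.95, 11.1 and 8.92 with cisplatin and 9.10, 7.07 and 6.99 with Pt-ttpy. All treated values lay above DMSO. It rose by 0.81 (SE 0.21, adjusted p = 0.0208) with cisplatin, a call that was lost without DMSO 1, DMSO 3 or cisplatin 2 (highest 0.0763), and was at 0.54 (0.113) with Pt-ttpy. SLC25A14 was at 8.52, 6.87 and 5.24 CPM with DMSO, 4.86, 5.71 and 5.13 with cisplatin and 4.8, 4.65 and 4.68 with Pt-ttpy (−0.55, adjusted p = 0.104 with Pt-ttpy). SLC25A30, SLC25A35, SLC25A43, SLC25A46 and SLC25A53 lay between −0.40 and 0.38 in both comparisons. SLC25A34 was too low to read, with 0 to 0.356 CPM.

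Without DMSO 2 and cisplatin 2 the fit on the other 7 libraries called 12 members lower and 6 higher with Pt-ttpy, against 17.4% and 15.8% of all genes in that fit. DMSO 2 and cisplatin 2 stood apart in these data, so p-values without them may understate the spread between replicates. The SE of SLC25A32 was 0.07 in this fit and 0.17 over the 9 libraries. SLC25A32 (−0.50, adjusted p = 1.6e-05), SLC25A46 (−0.40, 0.000958), SLC25A13 (−0.24), SLC25A10 (−0.22) and SLC25A20 (−0.46) were added to the lower members. SLC25A32 has 3654 exon bases, and its overlaps with AC012213.5 on the same strand and DCAF13 on the opposite strand sum to 2953 bases, so the source of its counts is uncertain. SLC25A45 (0.72), SLC25A35 (0.35), SLC25A36 (0.30) and SLC25A40 (0.28) were added to the higher ones. SLC25A35 shares 1293 exon bases with RANGRF on the opposite strand, which was itself lower with Pt-ttpy over the 9 libraries (−0.76, adjusted p = 0.0137). The median of the tested members was then −0.029, against 0.02 over all genes.

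The direct comparison of Pt-ttpy with cisplatin, at doses matched by their IC80, asks where the drugs part. None of the 41 tested carriers was called in either direction by edgeR. Of these carriers 2 had an unadjusted p under 0.05, against 1254 of the 15558 genes tested. DESeq2's Wald test and limma-voom also called 0. Over all genes 0.0578% were higher and 0.456% lower with Pt-ttpy, and 0 of 41 is near that background. The Pt-ttpy values lay above all cisplatin values in 5 members (10.5% of all genes) and below them in 5 (10.1%). The smallest p belonged to SLC25A43, of unsettled substrate, at 35.9, 38.4 and 37.6 CPM with DMSO, 31.1, 29 and 31.7 with cisplatin and 37.6, 37.0 and 37.5 with Pt-ttpy. Its cisplatin libraries stood below the other 6, with a difference of 0.29 (95% interval 0.06 to 0.51, adjusted p = 0.428). SLC25A40 followed with 0.29 (0.01 to 0.57, adjusted p = 0.599).

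The intervals limit how far the drugs could differ for the members called against DMSO. For SLC25A44 the difference Pt-ttpy minus cisplatin was 0.06 (95% interval −0.25 to 0.38) and for SLC25A42 0.07 (−0.31 to 0.44). For SLC25A5 it was −0.08 (−0.29 to 0.13), for SLC25A4 0.12 (−0.15 to 0.39), for SLC25A22 0.16 (−0.08 to 0.39) and for SLC25A21 0.17 (−0.07 to 0.42). Among the members called, the widest intervals were those of SLC25A45, at −0.27 (−0.73 to 0.18), and SLC25A20, at 0.06 (−0.35 to 0.47). These intervals hold 0, and they do not show that the drugs act alike. Without DMSO 2 and cisplatin 2, SLC25A40 was called higher with Pt-ttpy than with cisplatin, the 1 member of 41 so called, against 2.37% of all genes in that fit, which is near the background.

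**Figure D5:**
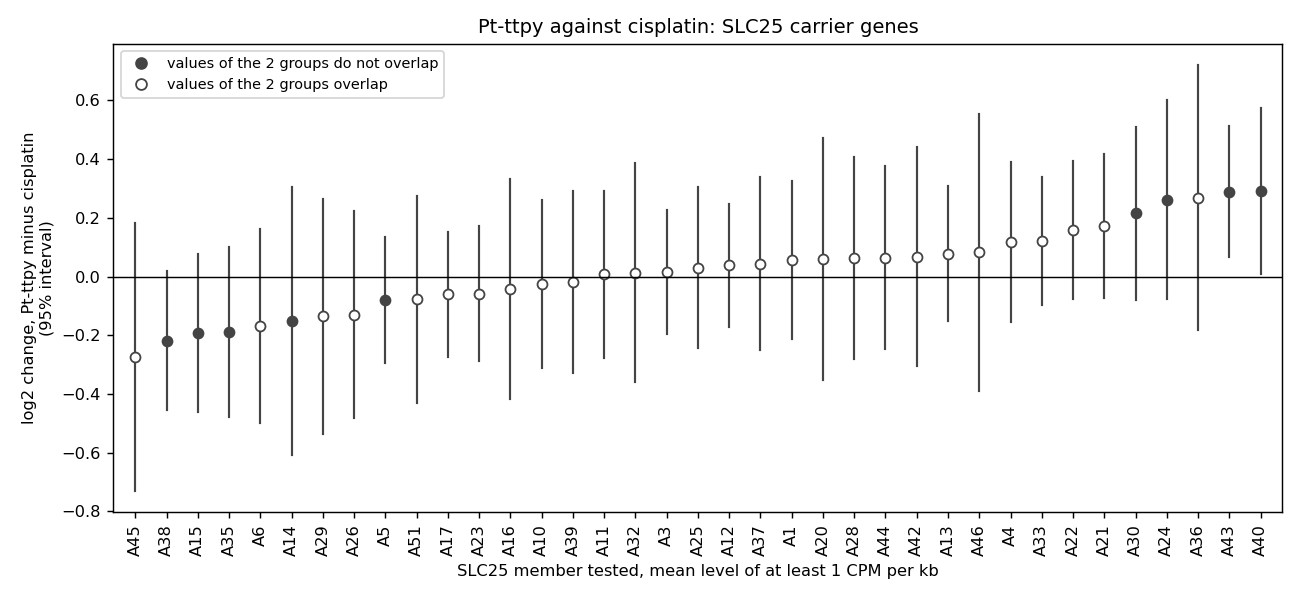
Fitted log2 difference between Pt-ttpy and cisplatin with its 95% interval for the 37 tested SLC25 members with a mean level of at least 1 CPM per kb; filled points have groups whose CPM values do not overlap. Nearly all intervals span 0, with those of SLC25A43 and SLC25A40 just above it.

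Carrier-type genes outside the SLC25A symbols gave 1 call. UCP2, an uncoupling protein of the same family, was at 4.61, 5.27 and 4.02 CPM with DMSO, 6.24, 13.4 and 8.92 with cisplatin and 7.75, 7.36 and 7.76 with Pt-ttpy. All treated values lay above DMSO, and it rose with cisplatin (1.04, adjusted p = 0.0153) and was not called with Pt-ttpy (0.72, 0.0807). The outer membrane relatives MTCH1 (−0.17, adjusted p = 0.378 with Pt-ttpy) and MTCH2 (−0.21, 0.153) were not called, UCP1 was at 0 in all 9 libraries and UCP3 was too low to test.

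Among 26 other transport genes of mitochondria tested, 2 were lower and 0 higher with Pt-ttpy (median −0.24), against 6.45% and 5.59% of all genes, so the lower count was near the background. With cisplatin 12 were lower and 0 higher (median −0.31), against 9.78% and 10.7%. The pyruvate carrier subunit MPC1, which admits the fuel for acetyl-CoA, was at 26.9, 26.5 and 25.2 CPM with DMSO. It was at 18.7, 14.5 and 16.5 with cisplatin and at 19.2, 19.1 and 18.9 with Pt-ttpy. MPC1 fell by 0.46 (adjusted p = 0.0362) with Pt-ttpy and by 0.66 (0.00595) with cisplatin, and LETM1, an ion exchanger of the inner membrane, by 0.47 (0.0208) and 0.39 (0.0258). The other pyruvate carrier subunit MPC2 fell by 0.56 (0.00553) with cisplatin, the calcium uniporter relative MCUB by 0.53 (0.0101) and the serine carrier SFXN1 by 0.44 (0.0173).

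Enzymes that make or use the substrates of the carriers were lower in 5 of 30 with Pt-ttpy (median −0.20) and in 10 of 30 with cisplatin (median −0.26), and 0 were higher. The shares of all genes called lower were 6.45% and 9.78%, and those called higher 5.59% and 10.7%. Citrate synthase CS, which makes the citrate that SLC25A1 exports, was at 338, 428 and 359 CPM with DMSO, 251, 242 and 260 with cisplatin and 242, 263 and 274 with Pt-ttpy. CS fell by 0.53 (adjusted p = 0.0131) with Pt-ttpy and by 0.58 (0.00461) with cisplatin. The shuttle transaminase GOT2 fell by 0.41 (0.0308) with Pt-ttpy, ornithine aminotransferase OAT by 0.38 (0.0401) and ALAS1, which starts heme synthesis, by 0.44 (0.0318). With cisplatin GOT1 fell by 0.53 (0.00933), glutathione reductase GSR by 0.40 (0.0117) and OAT by 0.44 (0.0157). Both lists have medians below that over all genes, as the carriers do.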

How the data were processed

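Libraries for mRNA sequencing were made from 1.3 µg of total RNA of A2780 cells with a SMARTER kit, per the labels' protocols. Raw counts per gene of the 9 libraries came in 1 table from the authors. The genome build was GRCh38, as the submitters' processing notes say. Which aligner, counter and strand setting were used is not given in these sources. All count columns were matched to samples, and 4568 rows named newGene were kept. Counts were fitted with edgeR 4.0.16 in R 4.3.3 (TMM factors, filterByExpr with a minimum count of 10, robust quasi-likelihood, 1 mean per group over all 9 libraries), with 3 contrasts and Benjamini-Hochberg adjustment over 15558 genes, called at an adjusted p under 0.05. Log2 changes with SE and 95% intervals come from that fit. Adjusted p-values are edgeR's unless another tool is named. The fits were tested on simulated counts with the same dispersion for all genes and no deviating library. That test cannot show how the calls here depend on single libraries. Total counts of 31.3 to 40.8 M per library set the precision of low members.

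The carriers, role groups, 26 other transport genes, 30 partner enzymes and cell type markers were chosen with earlier results of these data known. Named were every member called, all members by role, UCP1, UCP2, UCP3, MTCH1 and MTCH2, and up to 4 called genes by adjusted p of each of the 2 other lists per contrast. Lengths, positions and exon overlaps are from GENCODE 29, and promoters from RefSeq. Alternatives were DESeq2 1.42.0, limma-voom (limma 3.58.1), other scalings, filters and thresholds, a replicate block, left-out libraries and a fit without newGene rows. Levels over all exon bases and shares without newGene rows were chosen after seeing the data. Found by the same rule, 1 further member of the family is not reported here, and counts, shares and medians over members leave it out.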

Additional observations from a re-analysis of the deposited data

How the results depend on the processing

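Direction was kept by each called member in all settings run, and its call was kept in 322 recomputed values and lost in 118. With Pt-ttpy against DMSO the 7 lower members became 2 with upper-quartile factors and 2 with library totals, and with 7 libraries (without DMSO 2 and cisplatin 2) 12 were lower and 6 higher, with a median of −0.0293. Leaving out 1 library gave 0 to 9 lower members, 0 to 2 higher members and medians from −0.1905 to −0.0299, the last without DMSO 2. Over all genes these fits called 0.264% to 10.1% lower and 0.899% to 8.96% higher. Without Pt-ttpy 1, 2 or 3 the calls over all genes also dropped, to 199 higher and 68 lower, 143 and 42, and 212 and 87. With cisplatin against DMSO the 2 higher members became 4 in several settings. These were an adjusted p under 0.1, upper-quartile factors, library totals and DESeq2's Wald test. The others were a filter at 1 CPM in 3 libraries, 7 libraries and no newGene rows. On the 6 libraries of the contrast 0 were higher and 3 lower. With library totals the median of the members was −0.0748, against 0.10 over all genes. In the main fit these medians were −0.17 and 0.01. The settings with 4 higher members called 11.4% to 15.3% of all genes higher. Leaving out 1 library gave 0 to 3 higher and 5 to 8 lower members, against 6.59% to 10.7% and 5.81% to 8.80% of all genes. Pt-ttpy against cisplatin had 1 higher member with 7 libraries, SLC25A40. With all exon bases as the length the mean level was 74.8 for SLC25A3 and 345 CPM per kb for SLC25A5. The cause of these changes was not tested. A left-out library leaves fewer samples. Without cisplatin 2 the Pt-ttpy calls over all genes rose from 870 higher and 1004 lower to 1411 and 1593. Whether replicate numbers pair the libraries was not settled. Between groups, deviations of same-numbered libraries correlated at −0.039 to 0.22, with 1 of 9 pairs over 0.1. Those of differently numbered libraries correlated at −0.145 to 0.066. The DMSO and cisplatin pairs numbered 1, 2 and 3, at 0.0996, 0.22 and 0.082, lay above that range. With the replicate block 3 members were higher and 8 lower with Pt-ttpy, 3 and 10 with cisplatin, and 0 between the drugs. Over all genes that fit called 8.26% higher and 8.06% lower with Pt-ttpy, and 12.3% and 11.6% with cisplatin. Between the drugs it called 0.154% higher and 0.746% lower with Pt-ttpy. Depth limits SLC25A18, SLC25A34, SLC25A41 and SLC25A53, whose intervals were wide, and the 6 members near 0.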
